A study of Mus musculus with 18 samples.

Results

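Pvalb interneurons of the hippocampus (Hip) and the prefrontal cortex (PFC) were drawn from 18 libraries of single-nucleus RNA, 1 per region of 9 mice. A nucleus was a member if it held at least 2 unique molecular identifiers (UMIs, each a counted RNA molecule) of Gad1 and Gad2 together, at most 1 of Slc17a7, at least 2 of Pvalb, and more UMIs of Pvalb than of Sst, of Vip or of Lamp5. Of 138000 nuclei with at least 200 genes and at most 10% mitochondrial UMIs, 11314 passed the limits on Gad1, Gad2 and Slc17a7 and are called GABAergic. The whole rule left 339 Pvalb nuclei, 83 of 71398 nuclei in Hip and 256 of 66602 in PFC. Members were thus chosen by the UMI counts of 7 genes, and the levels of these 7 genes are given as a description with no test.

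The mice were of the Kun Ming stock and 8 weeks old. They were 3 specific pathogen-free (SPF) mice, 3 germ-free (GF) mice, of a colony derived from SPF mice by sterile treatment, and 3 colonized germ-free (CGF) mice, which had lived as GF mice before they shared an isolator with SPF mice for their last weeks. The labels name no engineered allele and no drug in any group. Each library held the nuclei of 1 frozen piece of tissue without a sort for cell type. Levels are in CPM, the UMIs of a gene in a sum of nuclei scaled to 1000000 UMIs in that sum. In all nuclei, Prox1 of dentate granule cells was at 79.2 to 123 CPM in Hip and 8.91 to 12.8 in PFC, so by this gene the libraries met their tissue labels. The comparisons ask what marks Pvalb nuclei among interneurons, how they differ between the regions, and how they differ with the microbial state of the mouse.

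Pvalb interneurons are inhibitory neurons that arise in the medial ganglionic eminence, as do Sst interneurons. Vip interneurons and most Lamp5 interneurons of the neocortex arise in the caudal ganglionic eminence. Most Pvalb interneurons are fast-spiking basket cells, which fire without adaptation through fast Kv3 potassium channels. These cells release GABA onto the somata of principal cells through synaptotagmin 2, and often carry a perineuronal net of chondroitin sulfate proteoglycans. A smaller kind, the chandelier cell, contacts the axon initial segment.

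A library of Hip held 49067853 to 63217083 UMIs over all deposited barcodes, with medians of 4678 to 7579 UMIs per kept nucleus. In PFC, the medians were 6795.5 to 7426.5 in the 3 GF libraries and 2353 to 3208 in the 6 SPF and CGF libraries. Over all deposited barcodes, these 6 also held 1.28 to 3.22% mitochondrial UMIs, against at most 1.10% in the other 12. In PFC the depth of the libraries and the contrast of GF mice with either other group therefore cannot be told apart. The members had a median of 10445 UMIs in Hip and 5655 in PFC. Any pair of the 18 libraries shared 6 to 29 cell barcodes, and no barcode was that of a member in both libraries of a pair. By a doublet score, 13 members were likely doublets.

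Most members sat close to the threshold. Of the 339, 230 held exactly 2 Pvalb UMIs, 67 held 3 and 42 held 4 or more, up to 13. Just outside the rule stood 516 nuclei with a single Pvalb UMI that met its other parts. In Hip these had 85.3 CPM of Syt2, against 173 CPM in nuclei with exactly 2 Pvalb UMIs, and 1369 CPM of Adarb2, a gene of caudal interneurons, against 20.7 CPM. In PFC the same steps were 178 to 236 CPM for Syt2 and 633 to 340.0 CPM for Adarb2. The nuclei just outside thus had less Syt2 and more Adarb2, and the step was wider in Hip than in PFC.

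For the identity of the members, the same rule with the names exchanged gave 1532 Sst, 553 Vip and 523 Lamp5 nuclei. UMIs were summed per library and class, and levels of a class are given as the mean ± SD over the 18 libraries unless stated. Pvalb (chr15:78191114-78206400 of GRCm38, minus strand), the calcium buffer that names the cells, was at 336 ± 196 CPM in the Pvalb class and at 12.0, 8.66 and 11.7 CPM in the Sst, Vip and Lamp5 classes. Sst was at 23.6 CPM in Pvalb nuclei and 927 CPM in the Sst class. At least 1 Sst UMI was found in 17.7% of Pvalb nuclei (95% exact interval 13.8 to 22.2%, median 6612 UMIs), 22.2% of the Lamp5 class (median 7224 UMIs) and 24.1% of the Vip class (median 5067 UMIs). The rule itself held Sst below the class gene in each of these 3 classes, so these shares describe the rule and are no measure of free RNA. Intervals of this kind cover counting error only.

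The classes were cut on their own marker genes, so the differences between them describe what goes with the rule and are not tests of it. By edgeR's fit with the library as a block and a threshold of 0.05 on the adjusted p, 17.6% of 4904 genes were higher and 19.4% lower in Pvalb nuclei than in the Sst class. The shares were 20.2% higher and 21% lower against the Vip class, and 20.2% and 20.8% against the Lamp5 class. Against each of the 3 classes, 494 genes (10.1%) were higher and 484 (9.87%) lower. The next paragraphs give members of gene lists, as log2 differences ± SE of that fit.

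Release genes set the members apart by Syt2 (chr1:134646677-134762593, plus strand), the fast calcium sensor of these terminals. Syt2 ranged from 39.5 to 429 (median 216) CPM in Pvalb nuclei of the 18 libraries and from 2.75 to 26.2 in the Sst class. The ranges of the Pvalb class and the Sst class did not overlap, and Syt2 was higher in Pvalb nuclei in 18 of 18 libraries, by 3.85 ± 0.20 against Sst, 3.81 ± 0.26 against Vip and 3.83 ± 0.25 against Lamp5. A Syt2 UMI was found in 63.1% of Pvalb nuclei (57.7 to 68.3%), in 6.20% of Sst nuclei, 5.42% of Vip nuclei and 6.50% of Lamp5 nuclei. Cplx1, a complexin that acts in vesicle fusion, was at 353 ± 324 CPM against 122, 69.3 and 97.4 CPM in the Sst, Vip and Lamp5 classes, and its relative Cplx2 was lower than in all of them. Of 22 release genes tested, 4 were higher than in each other class (Cacna1a, Cacnb4, Cplx1, Syt2) and 4 lower (Cacna1b, Cplx2, Rims1, Unc13c).

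Channels of fast spiking were mostly high. Of 21 tested, 14 were higher in Pvalb nuclei than in each other class. Among them were the Kv3 subunits Kcnc1 and Kcnc2, the Kv1 subunits Kcna1 and Kcna2 with their partners Kcnab1 and Kcnab2, Kcnip2, Kcnma1, the sodium channel genes Scn1a and Scn8a, and the pacemaker channel Hcn2. Only Scn2a of the 21 was lower than in all 3. Kcnc1 (chr7:46396497-46438704, plus strand) ranged from 428 to 1375 (median 685) CPM in Pvalb nuclei, from 92.6 to 335 (median 209) in Sst, 103 to 420.2 (median 233) in Vip and 141 to 455 (median 222) in Lamp5 nuclei. Its differences were 1.89 ± 0.09, 1.55 ± 0.10 and 1.58 ± 0.10, with 18 of 18 libraries in that direction against the Sst class. Kcnc2 was nearer to the Sst class, at 2650.2 against 1732 CPM (0.59 ± 0.12), and far above the Lamp5 class at 494 CPM. Scn1a, the main sodium channel of these cells, was 0.80 ± 0.07 above the Sst class. The median difference of the 21 channel genes was 0.64, 0.88 and 0.59 against the Sst, Vip and Lamp5 classes, beside -0.01, 0.00 and 0.00 over all genes tested. Kcns3, the modulator of Kv2 channels, was at 61.2 ± 36.1 CPM against 32.8, 5.75 and 61.1 CPM in the Sst, Vip and Lamp5 classes, and a UMI of it was found in 105 of 339 Pvalb and 152 of 523 Lamp5 nuclei.

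Of 8 tested lineage factors of the medial eminence, 2 were higher and 2 lower in Pvalb nuclei than in the Sst class, 6 and 2 against the Vip class, and 5 and 2 against the Lamp5 class, with medians of 0.10, 2.62 and 0.69. Only 1 of the 8 was higher than in each other class, and 0 were lower. Sox6, which specifies both kinds after they leave the eminence, was at 702 ± 189 CPM in Pvalb and 610.1 ± 301 in Sst nuclei, and at 42.9 and 71.1 CPM in Vip and Lamp5 nuclei. Lhx6, their shared fate factor, was at 57.4, 74.5, 1.34 and 30.0 CPM in the Pvalb, Sst, Vip and Lamp5 classes. Satb1 was at 282, 341, 48.7 and 29.4 CPM in the same order. For these 3 genes the mean of the Pvalb class over both regions was nearer to that of the Sst class than to those of the Vip and Lamp5 classes. The regions differed in this. A Lhx6 UMI was found in 28.2% of Lamp5, 37.3% of Pvalb and 34.5% of Sst nuclei in Hip, and in 4.32%, 28.9% and 33.9% in PFC. A Sox6 UMI was found in 91.6% of Pvalb and 54.1% of Sst nuclei in Hip (medians of 10445 and 8007 UMIs), and in 91.0% and 82.9% in PFC. Of the 6 tested genes of caudal origin, 0 were higher in Pvalb nuclei and 4 were lower than in each other class (Adarb2, Cnr1, Npas1, Prox1). Adarb2 was at 212 ± 372 CPM in Pvalb nuclei, 597 in Sst, 4973 in Lamp5 and 16954 in Vip nuclei. A UMI of it was found in 20.6% of Pvalb nuclei and 22.9% of Sst nuclei, against 97.3% of Vip nuclei. Gad1, Gad2 and Pvalb chose the members and are no check of their label, while the genes of these lists were not used by the rule.

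Away from the Sst class, the members were low in the glycoprotein Reln (37.5 against 805 CPM, -4.49 ± 0.28) and the NMDA receptor subunit Grin3a (45.6 against 673 CPM, -4.15 ± 0.23), each lower in 18 of 18 libraries. Of 22 glutamate receptor genes, 2 (Gria4, Cacng2) were higher and 7 lower than in each other class. Erbb4, the neuregulin receptor, was at 10216 CPM against 2263 in the Sst class (2.20 ± 0.12), while the Vip and Lamp5 classes stood at 8196 and 8199 CPM. Gabrd, the delta subunit of extrasynaptic GABA receptors, was at 124 CPM against 28.8, 12.7 and 62.9 CPM. Among receptors, Ntrk3 (TrkC) and Oprd1 (the delta opioid receptor) were higher than in each other class, with Oprd1 at 129 CPM against 65.2 in the Sst class. Ppargc1a, a coactivator of mitochondrial genes, was at 320.2 CPM against 109.9, 75.8 and 56.3 CPM. Of 39 nuclear genes of oxidative phosphorylation, 10 were higher than in each other class and 0 lower. Beside 10.1% higher and 9.87% lower than each other class over all genes, genes of GABA synthesis and uptake gave 2 higher (Abat, Slc38a1) and 0 lower of 8, and GABA receptor genes 2 higher, Gabrd among them, and 4 lower of 17. None of 16 ribosomal protein genes, 9 heat shock genes, 3 immediate early genes, 3 excitatory markers or 5 glial and vascular markers tested was higher or lower than in each other class.

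Other genes past all 3 classes included Cemip, which breaks down hyaluronan, at 483 ± 180.3 CPM against 53.4, 33.7 and 116 CPM, the membrane protein Tmem108 at 856 against 142, 194 and 172 CPM, and the guidance ligand Slit2 at 618 against 108, 33.5 and 51.7 CPM. Acan (aggrecan), the core of the perineuronal net, was at 30.2 CPM against 2.58, 1.79 and 1.74 CPM, and was too low to enter the fit. Of the 4 net genes that entered it, Tnr was higher and Ncan, Ptprz1 and Timp4 were lower than in each other class. A Pthlh UMI was found in 12.0% of Hip members (5.93 to 21.0%), against 1.04% of Sst, 5.53% of Vip and 1.22% of Lamp5 nuclei. A UMI of the chandelier gene Unc5b was found in 16.9% of Hip members (9.54 to 26.7%), against 4.68%, 6.53% and 8.57%. Hip members were deeper than these classes, with a median of 10445 UMIs against 8007, 5808 and 8597, and the part of depth in these shares was not tested. In PFC the shares of members were 3.91% for Pthlh and 3.12% for Unc5b, below the 7.63% and 9.04% of Vip nuclei and above the 1.26% and 1.57% of Sst nuclei. Of 278 Lamp5 nuclei of PFC, 0 held a Pthlh UMI, which limits nuclei with a UMI (up to 1.32% by the exact interval) and not those that express the gene, and 5 held one of Unc5b. A Vipr2 UMI, of another chandelier gene, was found in 7 of the 339 members (2.06%, 0.834 to 4.21%). In Hip its share was 3.61% of members (0.752 to 10.2%), 1.22% of Lamp5, 0.693% of Sst and 0.503% of Vip nuclei. In PFC its share was 1.56% of members, 2.52% of Lamp5 and 1.98% of Vip nuclei, so in PFC Pthlh, Unc5b and Vipr2 did not share an order of the classes. Tac1, of basket cells, was found in 26.0% of members against 7.31% of Sst, 4.70% of Vip and 4.02% of Lamp5 nuclei.

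Further genes separated the Pvalb class from some of the others. Elfn1, a postsynaptic protein that recruits metabotropic receptors to inputs of Sst cells, was at 9.73 CPM against 207, 146 and 7.75 CPM in the Sst, Vip and Lamp5 classes. The unconventional myosin Myo1e was at 130.2 CPM against 14.5, 6.43 and 9.02 CPM, and the cGMP phosphodiesterase Pde5a at 162 CPM against 19.8, 223 and 51.4 CPM. Myo1e was highest in the Pvalb class, while Pde5a was shared with the Vip class. Gabrb2, a beta subunit of GABA receptors, was at 567 CPM against 270.0, 459 and 869 CPM, and the calcium channel subunit Cacna2d2 at 276 CPM against 154, 19.4 and 27.0 CPM. Kit, the stem cell factor receptor, was at 6.73 CPM against 16.3, 166 and 275 CPM, and the secreted protein Ndnf of neurogliaform cells at 2.81 CPM against 14.9, 4.54 and 133 CPM. The vesicular GABA transporter Slc32a1 was at 73.1 CPM against 56.3, 51.5 and 48.5 CPM, and was not called against the Sst class (0.33 ± 0.14, adjusted p = 0.0679) or the Vip class (0.35 ± 0.17, adjusted p = 0.0913).

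**Figure D1:**
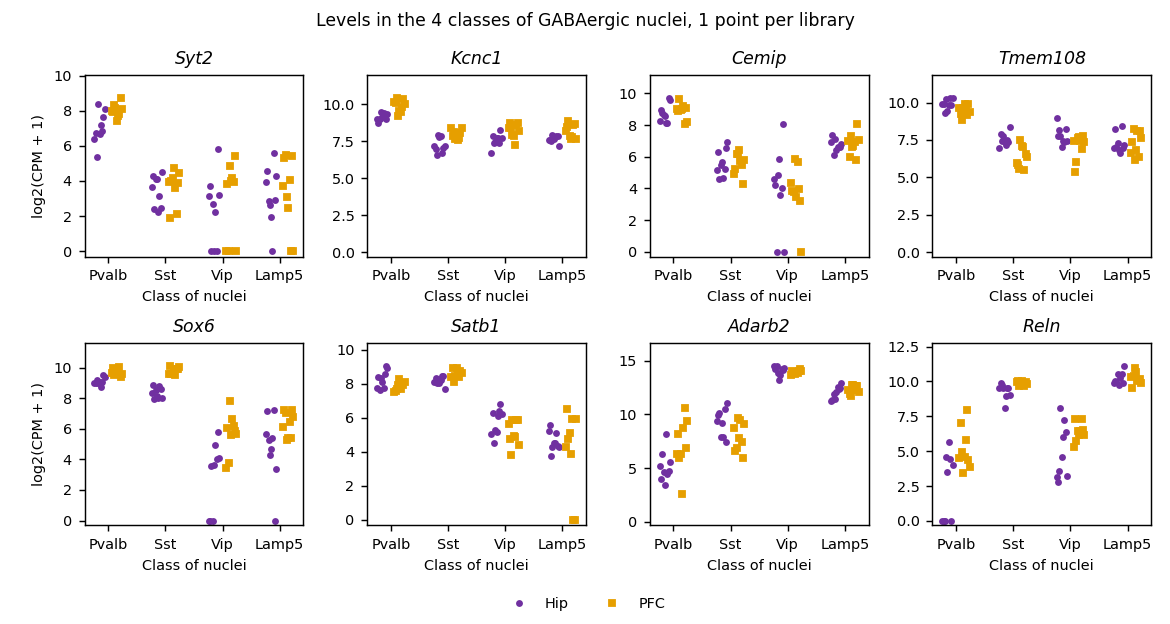
Levels of 8 genes, as log2 of CPM plus 1, in the summed Pvalb, Sst, Vip and Lamp5 nuclei of each library (circles Hip, squares PFC, 9 libraries each). Syt2 and Kcnc1 were high in Pvalb nuclei, and Adarb2 and Reln were low in them (mean 212 and 37.5 CPM). Sox6 and Satb1 were higher on average in the Pvalb and Sst classes than in the Vip and Lamp5 classes.

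Pvalb nuclei made up 1.46% ± 0.997 of GABAergic nuclei in Hip and 5.55% ± 2.66 in PFC (SD, n = 9 libraries each). The share in SPF Hip was 1.08%, 1.48% and 0.473%, from 7, 9 and 4 members. GF Hip gave 2.88%, 1.41% and 3.27% (16, 10 and 20 members) and CGF Hip gave 1.20%, 1.01% and 0.333% (7, 7 and 3 members). In Hip, 2 GF libraries lay above all SPF and CGF libraries, and the third lay among them. In PFC the shares were 4.52%, 9.62% and 4.25% in SPF, 3.81%, 5.53% and 2.74% in GF and 4.27%, 10.5% and 4.72% in CGF mice, and the 3 groups overlapped. Over the nuclei of the 4 classes alone, they were 10.2%, 12.1% and 7.83% in GF, 13.4%, 25.8% and 11.3% in SPF and 20.5%, 27.0% and 14.5% in CGF PFC, where GF lay below CGF mice without overlap (-10.6 points, exact permutation p = 0.1, the smallest that 3 against 3 can give) and overlapped with SPF mice (-6.77 points, exact permutation p = 0.2).

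The region difference was -4.09 percentage points (exact two-sided sign-flip test over 9 mice, p = 0.00781, adjusted p = 0.0234 over 3 tests), and the share was lower in Hip in 8 of 9 mice. In GF7 it was the other way, at 3.27% in Hip and 2.74% in PFC. Over the nuclei of the 4 classes alone, the shares were 7.44% in Hip and 15.8% in PFC (exact p = 0.0156). Between GF and SPF mice the difference was 1.51 points in Hip (exact permutation p = 0.2, adjusted p = 0.3) and -2.11 points in PFC (exact permutation p = 0.4), with 0.1 the smallest p that 3 against 3 can give. Over the 3 groups of Hip, the exact permutation p was 0.0607. The Sst, Vip and Lamp5 classes together also took more of the GABAergic nuclei in GF Hip (24.6 to 31.3%) than in SPF (10.1 to 15.2%) or CGF Hip (8.43 to 12.2%), so a difference particular to Pvalb nuclei was not shown.

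These shares depend on depth, since a member needs 2 Pvalb UMIs. When each nucleus was thinned to 2000 UMIs, 0 members were left in each of the 9 Hip libraries, and in PFC the share became 0%, 0.912% and 0.209% in GF, 2.91%, 7.11% and 1.98% in SPF and 0.755%, 3.14% and 2.76% in CGF mice. Thinning left out nuclei under 2000 UMIs, 3862 in GF, 1868 in SPF and 2572 in CGF Hip, and 3464, 5995 and 8323 in PFC. The GF minus SPF difference in PFC was then -3.63 points (exact permutation p = 0.1). Over all nuclei as the denominator it turned to 0.0934 points (exact permutation p = 0.4).

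**Figure D2:**
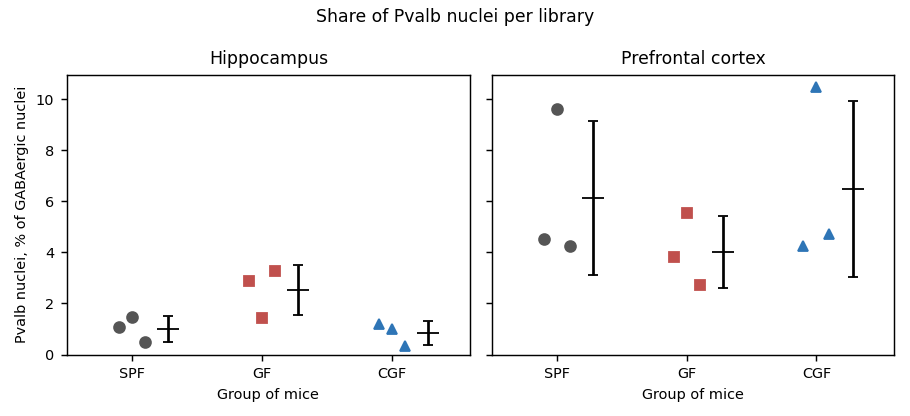
Pvalb nuclei as a percent of GABAergic nuclei in each library of Hip (left) and PFC (right), by group, with the mean and SD of 3 libraries beside the points. All Hip libraries lay at or below 3.27% and the highest PFC libraries were CGF18 and SPF31, at 10.5% and 9.62%.

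Between the regions, the levels of Pvalb nuclei were compared first in the 3 GF mice, where no library was among the shallow ones of PFC. Depth was still unequal there. Median UMIs per nucleus were 5905, 4678 and 5083 in Hip and 6795.5, 7426.5 and 6906 in PFC, and the summed members held 213570, 98691 and 204045 UMIs in Hip and 312311, 384727 and 261233 in PFC. The gap was widest in GF6, and its part in the calls was not tested. Of 3341 genes tested with edgeR, 40 (1.2%) were higher and 16 (0.479%) lower in Hip at an adjusted p of 0.05. The teneurins Tenm3 and Tenm2, adhesion proteins that match pre- and postsynaptic partners, were higher in Hip, and the NMDA receptor subunit Grin2a and the M-current channel Kcnq3 were lower. Of 20 fast-spiking channel genes, Kcnq3 alone was called, and of 20 glutamate receptor genes Gria1 and Grin2a were. Of 21 release genes, 0 were called. Kcnc1, Scn1a, Syt2 and Erbb4 differed by 0.03 ± 0.20, -0.01 ± 0.20, -0.05 ± 0.32 and 0.02 ± 0.25 (log2 Hip over PFC ± SE). Not called were also Kcnc2 (-0.24 ± 0.32), Kcns3 (-0.53 ± 0.56), Slc32a1 (0.14 ± 0.33), Adarb2 (-0.36 ± 0.91) and Sox6 (-0.74 ± 0.21, adjusted p = 0.0814).

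Tenm3 (chr8:48227682-48843951 of GRCm38) was at 1377, 1905 and 1372 CPM in Hip and 224, 174 and 229.7 CPM in PFC. The regions stood far apart, with a log2 difference of 2.97 ± 0.34 (adjusted p = 2.28e-05). Tenm2 was at 4851, 5279 and 6479 CPM in Hip and 1694, 2734 and 1971 CPM in PFC (1.47 ± 0.24, adjusted p = 0.000946). Shisa6, an auxiliary subunit of AMPA receptors, was at 201, 50.7 and 299 CPM in Hip and 9.61, 5.20 and 3.83 CPM in PFC (4.91 ± 0.74, adjusted p = 0.000632). Oprm1, the mu opioid receptor, was at 89.0, 81.1 and 142 CPM in Hip and 22.4, 10.4 and 19.1 CPM in PFC (2.69 ± 0.57, adjusted p = 0.00982). The regions did not overlap for these 4 genes, which the rule for named genes required of Shisa6 and Oprm1. Gria1, an AMPA receptor subunit, was at 3530.5, 1571 and 3308 CPM in Hip and 1466, 1393 and 1328 CPM in PFC (1.10 ± 0.27, adjusted p = 0.0324).

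On the lower side in Hip, Grin2a was at 398, 122 and 201 CPM in Hip and 752, 1006 and 1091 CPM in PFC (-1.83 ± 0.39, adjusted p = 0.00982). Kcnq3 was at 299.7, 193 and 230.3 CPM in Hip and 909, 886 and 701 CPM in PFC (-1.67 ± 0.32, adjusted p = 0.00517). Mgat4c, a glycosyltransferase gene, was at 183, 132 and 358 CPM in Hip and 899.7, 1120.3 and 888 CPM in PFC (-1.97 ± 0.31, adjusted p = 0.000727). Each of the 3 PFC values exceeded each Hip value for all 3 genes, which the rule for named genes required. Luzp2 (-1.87 ± 0.36), Prr16 (-2.09 ± 0.41) and Rerg (-2.26 ± 0.54) were also lower. The noncoding RNAs C130073E24Rik (5.74 ± 0.78), 4930555F03Rik (5.21 ± 0.72), Gm2516 (4.42 ± 0.67) and Gm45321 (4.55 ± 0.82) were higher in Hip, each near 0 in PFC members (means of 7.25, 5.97, 5.61 and 4.73 CPM).

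The count rested on few nuclei. It was 16 without GF7, 33 without GF5 and 35 without GF6. Over the 9 fits that left out 1 mouse each, Tenm3, Shisa6, Mgat4c, C130073E24Rik and 4930555F03Rik kept their calls. Those of Gm2516, Gm45321 and Tenm2 were lost without GF7 (adjusted p = 0.0675 for Tenm2), that of Luzp2 without GF5, and those of Grin2a, Kcnq3, Oprm1, Prr16 and Rerg without GF6 and without GF7. Gria1 was lost without any of GF5, GF7, CGF17 and SPF31. Of the 56 genes, 40 were also called by DESeq2. Rerg (adjusted p = 0.051) and Apoe (adjusted p = 0.0774) were among those not called by DESeq2. With at least 3 UMIs of the class gene, which left fewer nuclei and 2191 genes tested, 17 of the 56 were also called. Of the 56 genes, 51 had the same sign in SPF and 51 in CGF mice, where 31 and 38 were called, a comparison chosen after the data were seen. Over all 3341 genes, 879 were called in SPF and 769 in CGF mice. The share of all genes with the same sign was not computed. In SPF and CGF mice the PFC libraries were the shallow ones.

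Some of these differences were shared with the tissue. Shisa6 was at 506 to 528 CPM in all nuclei of GF Hip and 49.7 to 62.6 CPM in GF PFC. Among the 56 called genes were also Apoe of astrocytes (3.30 ± 0.80, and -0.37 without GF6) and Ttr of the choroid plexus, at 0, 6566 and 348 CPM in GF Hip members and 0 in GF PFC members, which overlapped. With the mouse as a block, Apoe was not called (1.64 ± 0.85, adjusted p = 0.626). The sum of 16 glial and vascular markers was 248 to 8106 CPM in GF Hip members, highest in GF6, against 159 to 743 in GF PFC. Ttr is among these 16 and made up most of the sum in GF6. The part of these markers in the other calls was not tested. Against the mean of the Sst, Vip and Lamp5 classes of the same libraries, an alternative added after the data were seen, all 56 genes kept their sign and 21 were called. Over all genes, 35 of 7283 were called. The 56 genes were chosen on the same Pvalb sums that enter this contrast, so kept signs and calls were favored in advance. Oprm1 (2.33 ± 0.50, adjusted p = 0.0131), Shisa6 (3.75 ± 0.64, adjusted p = 0.000323), Grin2a (-1.68 ± 0.35, adjusted p = 0.00815) and Kcnq3 (-1.58 ± 0.32, adjusted p = 0.0066) were among the 21. For Tenm3 (0.87 ± 0.31, adjusted p = 0.352), Tenm2 (0.21 ± 0.27, adjusted p = 0.944) and Gria1 (0.14 ± 0.21, adjusted p = 0.954) a difference from the other classes was not shown. Mgat4c (adjusted p = 0.0592), Luzp2 (0.363), Prr16 (0.415), 4930555F03Rik (0.22), Gm2516 (0.58) and Gm45321 (0.552) were not called there either. C130073E24Rik, Rerg and Apoe were called (adjusted p at most 0.0259).

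**Figure D3:**
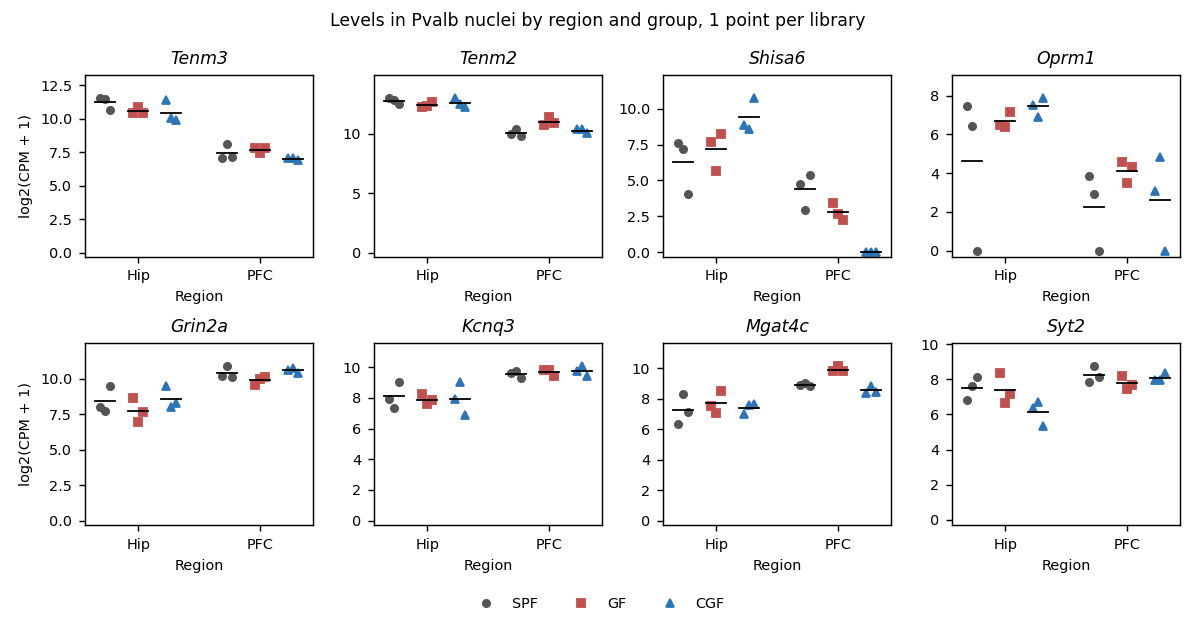
Levels of 8 genes in the Pvalb nuclei of each library, as log2 of CPM plus 1, by region and group, with a black line at the mean of the 3 log values. Tenm3 and Tenm2 were higher in Hip in each group, Grin2a and Kcnq3 higher in PFC, and Syt2 of GF mice overlapped between the regions (328, 101 and 142 CPM in Hip, 288, 172 and 207 CPM in PFC).

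Averaged over the 3 groups, 582 of 3341 genes (17.4%) were higher and 611 (18.3%) lower in Hip. This contrast sets Hip libraries against PFC libraries of which 6 of 9 were shallow, and region and depth cannot be told apart there. Tenm3 (3.51 ± 0.22), Tenm2 (2.24 ± 0.15), Tmtc2 (2.14 ± 0.21), the lymphatic factor gene Ccbe1 (2.98 ± 0.46) and the GABA receptor subunit Gabrg3 (0.86 ± 0.13) were higher in Hip without overlap among 18 libraries (adjusted p at most 1.95e-05). Grin2a (-1.75 ± 0.23), Kcnq3 (-1.45 ± 0.20), the adhesion protein Kirrel3 (-2.10 ± 0.36), Enpp5 (-2.88 ± 0.43) and the adrenergic receptor Adra1a (-0.94 ± 0.19, adjusted p = 0.000333) were lower. Erbb4 was higher (1.11 ± 0.15, adjusted p = 2.71e-06), and Kcnc1 (-0.67 ± 0.12, adjusted p = 0.000149), Sox6 (-0.54 ± 0.13, adjusted p = 0.00222) and Syt2 (-0.76 ± 0.23, adjusted p = 0.013) lower. The call of Syt2 was lost without CGF17 and without SPF31 (adjusted p up to 0.0661). Against the other classes, Erbb4 (-0.07 ± 0.17) and Sox6 (0.86 ± 0.32) turned sign, and the calls of Tenm2 (0.34 ± 0.16, adjusted p = 0.354), Gabrg3 (0.42 ± 0.14, adjusted p = 0.11), Adra1a (-0.22 ± 0.25, adjusted p = 0.804), Kcnc1 (-0.15 ± 0.15, adjusted p = 0.756) and Syt2 (-0.58 ± 0.46, adjusted p = 0.67) were lost. Adarb2 of caudal interneurons was lower in Hip members (-2.34 ± 0.74, adjusted p = 0.0161), and also against the other classes (-2.65 ± 0.65, adjusted p = 0.0114). Its levels overlapped, at 10.1 to 289 CPM in Hip and 5.20 to 1517 CPM in PFC, the call was lost without CGF18 and without SPF30 (adjusted p up to 0.14), and the sign turned with members of 3 Pvalb UMIs or more (0.15). Its part in the other calls was not tested. Of 30 oxidative phosphorylation genes tested, 18 were lower and 2 higher in Hip, with a median of -0.76 beside 0.00 over all genes. The mitochondrial sum of members was 532 to 8425 CPM in Hip and 4195 to 50225 CPM in PFC, and of 3 glial and vascular markers tested 2 were higher in Hip, with a median of 1.21. Their part in this contrast was not tested. In GF mice alone, 0 of the 30 were called by edgeR, with a median of 0.34.

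In the Pvalb nuclei of Hip, the groups of mice differed in few genes. The summed members held 213570, 98691 and 204045 UMIs in GF and 98280, 116567 and 64743 UMIs in SPF mice. In CGF mice they held 108708, 67719 and 25287 UMIs, the last from 3 nuclei, so low levels in Hip rest on few UMIs. Of 2166 genes tested, 22 (1.02%) were higher and 1 (0.0462%) lower in GF than in SPF mice. Among the genes called were Nrgn, the calmodulin-binding neurogranin of principal cells, Malat1, a nuclear noncoding RNA, the ubiquitin gene Ubb, the ferritin chain Fth1 and the peptide gene Cck. None of the 18 fast-spiking channel genes tested was called by edgeR, with a median of -0.24 beside -0.02 over all genes. Kcnc1 was at 698, 567 and 671 CPM in GF and 580.0, 515 and 649 CPM in SPF mice (0.31 ± 0.23, adjusted p = 0.665). Kcnc2 was at 2374, 1895 and 2406 CPM in GF and 3663, 4898 and 2873 CPM in SPF mice (-0.63 ± 0.40, adjusted p = 0.565). The levels of Kcnc1 overlapped, and those of Kcnc2 were lower in each GF library but did not pass the test. Syt2 was at 328, 101 and 142 CPM in GF and 112, 197 and 278 CPM in SPF mice, and 82.8, 103 and 39.5 CPM in CGF mice (0.21 ± 0.42 for GF over SPF, adjusted p = 0.908, and 1.32 ± 0.51 for GF over CGF, adjusted p = 0.293). Erbb4 (-0.19 ± 0.27), Scn1a (-0.16 ± 0.24) and Sox6 (-0.26 ± 0.25) were not called between GF and SPF mice either.

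Nrgn was at 295, 355 and 259.7 CPM in GF and 61.1, 77.2 and 92.7 CPM in SPF mice (2.12 ± 0.31, adjusted p = 0.00666). Mid1, a ubiquitin ligase bound to microtubules, was at 149.8, 223 and 167 CPM in GF and 10.2, 8.58 and 0 CPM in SPF mice (4.56 ± 0.70, adjusted p = 0.00666). The SPF levels of Mid1 rest on few UMIs, so this difference is against a group near 0. Cck was at 136, 203 and 221 CPM in GF and 20.4, 60.1 and 61.8 CPM in SPF mice (2.10 ± 0.41, adjusted p = 0.0328). Upp2, a uridine phosphorylase, was the gene that fell, at 108, 81.1 and 118 CPM in GF and 193, 412 and 479 CPM in SPF mice (-1.61 ± 0.34, adjusted p = 0.0442). In all 4 genes the GF and SPF libraries did not overlap, which the rule for named genes required. Malat1 (1.36 ± 0.21), Ubb (2.85 ± 0.51), Fth1 (3.02 ± 0.59), Bsg (3.76 ± 0.74), Ndufa4 (2.34 ± 0.49), Calr (2.96 ± 0.64) and Ppia (3.03 ± 0.67) were higher as well.

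Of these 4 genes, the levels in whole libraries stood in the same order, with no test. In all nuclei of Hip, Nrgn was at 534 to 618 CPM in GF and 205 to 363 in SPF mice, Mid1 at 125 to 178 and 38.8 to 66.1, Cck at 317 to 362 and 87.1 to 150.4, and Upp2 at 92.4 to 123 and 267 to 409.9 CPM. The sum of 12 transcripts that marked whole libraries (such as Malat1, Meg3 and Ubb) was 85006 to 108096 CPM in GF members and 42568 to 54639.8 in SPF members, and 80257 to 88002 and 39049 to 41329.6 in all nuclei. The sum of 10 markers of excitatory neurons was 857 to 926 CPM in GF members of Hip, without overlap with SPF members (583 to 661 CPM) or CGF members (679 to 837 CPM). Nrgn is among these 10 markers, so this sum is not separate from the call of Nrgn. Whether the other markers of the list differed between the groups was not tested. The sum of 16 glial and vascular markers was 248 to 8106, 183 to 556 and 258 to 2373 CPM in the GF, SPF and CGF members, highest in GF6. Ttr of the choroid plexus is among these 16 and made up most of the sum in GF6. The part of these sums in the calls was not tested. The count of 23 fell to 0 without SPF31, and was 10 without SPF30, 5 without SPF32, 8 without GF6, 9 without GF7 and 9 without CGF17. Without SPF31 the adjusted p of Nrgn and of Mid1 was 0.0797, and that of Malat1 0.0786, while their calls held in the other 8 fits. Cck lost its call without any SPF mouse, GF6, GF7 or CGF17 (adjusted p up to 0.137), and Upp2 without any GF mouse, CGF17, SPF31 or SPF32 (up to 0.255). The calls of Ubb, Fth1, Bsg, Ndufa4, Calr and Ppia were each lost without any 1 of the 3 SPF mice. Those of Fth1, Bsg, Ndufa4 and Ppia were also lost without CGF17, those of Ndufa4 and Calr without any GF mouse, that of Calr without CGF19, and that of Ppia without GF6, CGF18 or CGF19.

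CGF and SPF mice differed in a single gene in this region. Of the 2166 genes, 1 (0.0462%) was higher in CGF than in SPF Hip and 0% were lower, with 135 at an unadjusted p under 0.05 and 2 called by DESeq2. The count was 2 without SPF30. The gene was Mid1, at 184, 502 and 514 CPM in CGF mice (5.54 ± 0.68, adjusted p = 0.00276). Its SPF levels rest on few UMIs, so this difference, too, is against a group near 0. GF against CGF mice gave 27 (1.25%) higher and 4 (0.185%) lower. Nrgn was at 55.2, 59.1 and 79.1 CPM in CGF mice (2.39 ± 0.35 for GF over CGF) and Upp2 at 322, 428 and 237 CPM (-1.62 ± 0.36). The mitochondrial transcript mt-Co3 was at 1231, 1854 and 2367 CPM in GF and 101, 73.8 and 198 CPM in CGF members (4.14 ± 0.61). The whole libraries differed alike. The sum of 13 mitochondrial genes was 4507 to 8785 CPM in all nuclei of GF Hip and 686 to 2006 CPM in those of CGF Hip, and 4088 to 8425 and 532 to 1542 CPM in the members. SPF Hip lay at 1140.3 to 4287 CPM in all nuclei. The part of this shift in the other calls was not tested. Without mitochondrial transcripts, ribosomal RNA-linked transcripts and Malat1, 18 genes were called. The removed transcripts could not be called there, and Malat1 and mt-Co3 were among the genes called with them. Malat1 (1.22 ± 0.21), Bsg (4.03 ± 0.86), Ubb (2.39 ± 0.54) and the chaperone Hspa5 (3.56 ± 0.79) were higher in GF than in CGF mice, and Spats2l (-1.66 ± 0.33), St5 (-1.55 ± 0.33) and Gm1604a (-1.73 ± 0.37) lower. Fth1 was also called, at 384, 1439 and 348 CPM in GF and 73.6, 59.1 and 198 CPM in CGF members (adjusted p = 0.0378). All of these calls were lost without CGF17 and without CGF18, and those of Upp2, Bsg, Fth1, Ubb, Hspa5, Spats2l, St5 and Gm1604a also without SPF31. Those of Hspa5, Spats2l, St5 and Gm1604a were lost without any GF mouse as well, those of Bsg, Hspa5 and Gm1604a without CGF19, that of Ubb without GF6 or GF7, and those of Ubb and Hspa5 without SPF32. Over the fits without 1 mouse, the adjusted p values of these genes reached 0.348. The comparisons with SPF and with CGF share the GF libraries. The count of 31 became 0 without CGF17 and 0 without CGF18, and was 20 without GF5, 14 without GF6, 8 without GF7 and 7 without SPF31. The call of Upp2 was lost without any of these.

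In PFC, many more genes separated GF mice from the others, along the line of library depth. Of 3695 genes tested, 480 (13%) were higher and 519 (14%) lower in GF than in SPF mice, and 526 (14.2%) were higher and 545 (14.7%) lower in GF than in CGF mice. CGF and SPF libraries, which had like depth, differed in 6 genes, 3 in each direction (0.0812% and 0.0812%). Among the falls in GF mice were Gm42418 (-6.21 ± 0.27), a transcript that overlaps ribosomal RNA, and Cmss1 (-5.10 ± 0.24), which both followed the library in all nuclei: Gm42418 was at 117 to 188 CPM in GF and 11991 to 17661 in SPF PFC as a whole. Microbial state and the depth of the libraries cannot be told apart where the next paragraphs set GF mice against SPF or CGF mice. The sum of 13 mitochondrial genes also moved with the groups, at 4195 to 6644 CPM in GF members, below all SPF members (18549 to 50225 CPM) and CGF members (28994 to 39924 CPM) of PFC, and its part in the calls was not tested.

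Of 20 fast-spiking channel genes, 3 were higher and 2 lower in GF than in SPF members of PFC, shares near those over all genes, with a median of -0.08 beside 0.03. Erbb4 was at 11456, 10618 and 11936 CPM in GF, 4750.4, 3710.1 and 5298 CPM in SPF and 5096, 6248 and 4879.6 CPM in CGF mice (1.44 ± 0.18 against SPF, adjusted p = 8.26e-07, and 1.17 ± 0.18 against CGF). Gria4, the AMPA receptor subunit of fast interneurons, was at 2126, 1973 and 1723 CPM in GF, 1410.5, 958 and 735 CPM in SPF and 1272, 1342 and 1523 CPM in CGF mice (1.05 ± 0.19 and 0.60 ± 0.19). Both were highest in the GF libraries. The potassium channel gene Kcna1 (1.18 ± 0.29), Kcnc2 (0.73 ± 0.18), Cck (1.17 ± 0.27) and the muscarinic receptor Chrm2 (1.55 ± 0.42) were also higher in GF than in SPF mice, and Kcnc1 was lower (-0.57 ± 0.18, adjusted p = 0.0178). Calls against SPF mice were lost without SPF31 for Kcnc2, Kcnc1 and Chrm2 (log2 differences down to 0.59 for Kcnc2, up to -0.42 for Kcnc1 and down to 1.22 for Chrm2 over the fits without 1 mouse), and for Kcnc1 also without GF5. The call of Gria4 against CGF mice was lost without GF5 and without CGF17 (adjusted p up to 0.0738).

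Of 21 release genes, 1 was higher, 6 were lower and 14 were not called, beside 13% higher and 14% lower over all genes, with a median of -0.27. Of 4 net genes, 0 were higher and 1 was lower, too few to set against those shares, with a median of 0.22. Cplx1 was at 179, 140.4 and 203 CPM in GF, 346, 1192 and 874 CPM in SPF and 743, 737 and 547 CPM in CGF mice (-2.14 ± 0.27 against SPF, adjusted p = 6.43e-07). Vamp1, the vesicle protein of fast-firing neurons, was at 25.6, 33.8 and 19.1 CPM in GF and 79.8, 194 and 166 CPM in SPF mice (-2.36 ± 0.42). Hapln4, which links the perineuronal net, was at 19.2, 10.4 and 23.0 CPM in GF and 26.6, 141 and 55.5 CPM in SPF mice (-2.20 ± 0.52), a call that was lost without SPF31 (log2 difference -2.50 to -1.15 over the fits without 1 mouse). GF libraries were the lowest for all 3 genes. Syt2 was not called (288, 172 and 207 CPM in GF, 226, 429 and 277 CPM in SPF and 250.0, 246 and 325 CPM in CGF mice, -0.43 ± 0.25, adjusted p = 0.205). In all nuclei of PFC, Cplx1 was at 46.3 to 50.0 CPM in GF and 119.5 to 164 in SPF mice.

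At the receiving synapse, Gphn, the gephyrin scaffold of GABA receptors, was at 666, 673 and 609 CPM in GF, 1357, 1735 and 1817 CPM in SPF and 2757, 2921 and 2159 CPM in CGF mice (-1.21 ± 0.18 against SPF, adjusted p = 8.83e-06). Gabrb2 (0.73 ± 0.19) and Gabrg3 (0.50 ± 0.18) were higher in GF than in SPF mice. Over all genes 13% were higher and 14% lower, which is the background of the counts that follow. Of 18 glutamate receptor genes, 5 were higher and 1 lower, among them Gria3 (0.67 ± 0.18), Grm5 (0.60 ± 0.18) and Grm8 (-1.60 ± 0.42), with a median of -0.03. Without SPF31 the calls of Gabrb2, Gabrg3, Grm5 and Grm8 were lost (adjusted p up to 0.238 for Grm8). That of Grm5 was also lost without GF7, and that of Gabrg3 without GF6, GF7, SPF30 or SPF32. Of 41 oxidative phosphorylation genes, 3 were higher and 8 lower, and of 13 ribosomal protein genes 0 were higher and 5 lower, with medians of -0.20 and -0.83. The lineage factors Lhx6 (-0.72 ± 0.42) and Sox6 (0.19 ± 0.19), the transporter Slc32a1 (0.22 ± 0.35), the peptide gene Tac1 (0.36 ± 0.46) and Scn1a (0.08 ± 0.19) were not called. For these 5 genes no difference between GF and SPF mice was shown at this depth.

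Some genes were near 0 in the members of all but 1 group. Pla2g3, a secreted phospholipase, was at 320.2, 304 and 306 CPM in GF, 0, 0 and 0 CPM in SPF and 29.4, 0 and 0 CPM in CGF mice, at least 30.7-fold higher in GF than in SPF mice when the SPF group is put at 3 UMIs in all. In all nuclei it was at 39.7 to 58.9 CPM in GF and 3.78 to 4.83 in SPF PFC. The noncoding Gm26905 was likewise at least 52.2-fold higher. In Hip, Pla2g3 was present in SPF members too (132, 120.1 and 108 CPM). Sim2, a midline transcription factor, was at 0 in the SPF and GF members of PFC and at 132, 150.2 and 163 CPM in CGF members, at least 14.7-fold higher (adjusted p = 0.000232 against SPF). It was also at 116 to 231 CPM in all nuclei of CGF PFC and at most 0.118 CPM in SPF PFC, so whole libraries carried it.

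The other 5 genes called between CGF and SPF members of PFC were Cdk8, a kinase of the mediator complex (581, 683 and 473 CPM in CGF and 159.7, 288 and 264 CPM in SPF mice, 1.31 ± 0.23), Mid1 (118, 205 and 73.9 and 66.5, 13.4 and 13.9 CPM, 2.48 ± 0.53), AC149090.1 (-2.50 ± 0.32), Frmpd4 (-1.35 ± 0.23) and Ralyl (-1.49 ± 0.29). Values of the groups did not overlap for these genes, which the rule for named genes required. Mid1 was again higher in GF than in SPF mice (2.71 ± 0.49), as in Hip. The call of Cdk8 was lost without CGF18, that of Ralyl without CGF17 or SPF30, and that of Mid1 without CGF18, SPF31 or SPF32 (adjusted p up to 0.523). By DESeq2 Mid1 was not called (adjusted p = 0.148). Over the fits without 1 mouse the count ran from 4 to 12, with 12 without GF5 and 11 without CGF19 or SPF32.

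**Figure D4:**
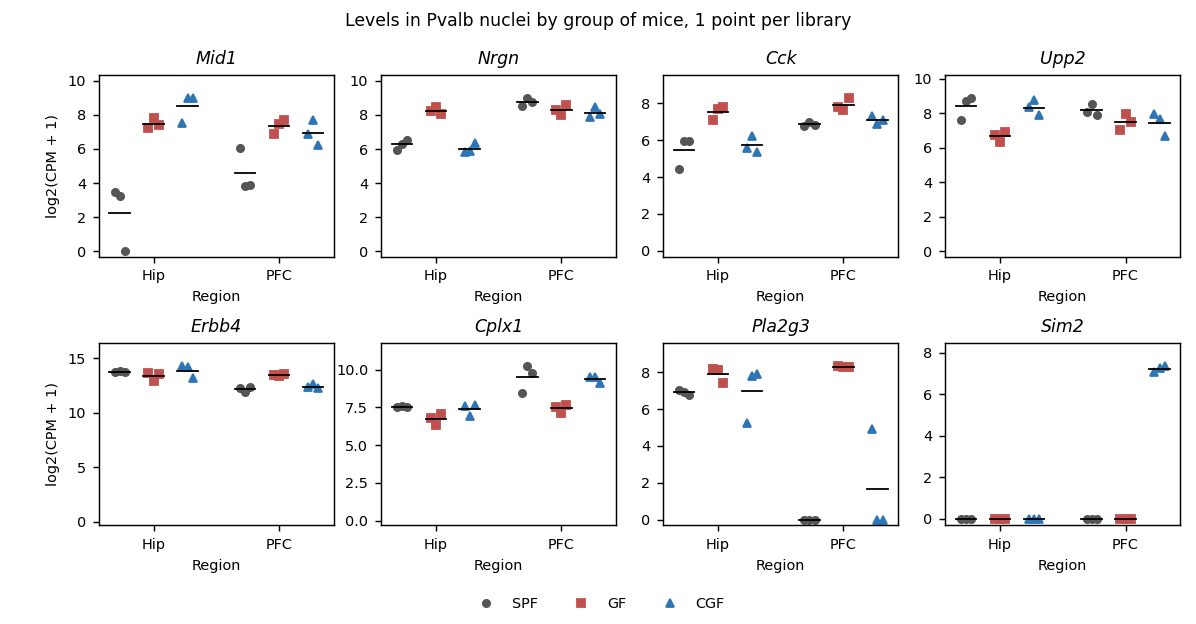
Levels of 8 genes in the Pvalb nuclei of each library, as log2 of CPM plus 1, by region and group, with a black line at the mean of the 3 log values. Mid1 was low in SPF mice of both regions, Nrgn and Cck were high in GF Hip, Erbb4 was highest and Cplx1 lowest in GF mice within PFC, and Sim2 was above 0 in CGF PFC alone (132, 150.2 and 163 CPM).

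A difference that a library has in all interneurons cancels when the Pvalb class is set against the mean of the Sst, Vip and Lamp5 classes of the same libraries. For GF minus SPF in Hip, edgeR called 0% of 5634 genes as higher and 0% as lower, with 396 at an unadjusted p under 0.05 and 0 by DESeq2. Syt2 (1.92 ± 0.66, adjusted p = 0.468) and Kcnc1 (-0.07 ± 0.25, adjusted p = 0.989) were not called. In PFC, 2 of 6696 genes (0.0299%) were higher and 4 (0.0597%) lower in GF Pvalb nuclei than the other classes would give. These were Cnnm2 (1.96 ± 0.36), a magnesium transport protein, and the initiation factor Eif2d on the one side, and Egfem1 (-2.48 ± 0.51), Ckb (-1.10 ± 0.21), the brain creatine kinase, Ppia (-1.04 ± 0.23) and Nrgn (-1.03 ± 0.23) on the other. Erbb4 (0.37 ± 0.22, adjusted p = 0.686) and Cplx1 (-0.83 ± 0.27, adjusted p = 0.256) were not among them. Without GF6 or SPF32 the count was 0 by edgeR, and without SPF30 or SPF31 it was 2. DESeq2 called 2 genes as higher and 16 as lower. On simulated counts this test found 30.9% of genes changed by 2 on the log2 scale in Hip and 22.7% in PFC, and 3.13% and 0% of those changed by 1. The simulation gave all genes the same dispersion (spread beyond counting error) of 0.1, which was not set against that of the data.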

How the data were processed

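Nuclei of frozen tissue were profiled on the 10x Genomics platform, with the V3.1 kit of 3' libraries per the labels. The deposited values are raw counts of UMIs per gene and barcode in 18 filtered matrices, which the authors made with CASAVA 1.8 and Cell Ranger (3.1.0 per the file headers) on the mouse genome mm10. The design text of the series names another kit and version, and whether intronic reads were counted is not given in the sources used here. No column was left unassigned.

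Nuclei with at least 200 genes and at most 10% mitochondrial UMIs were kept. Members and gene lists were chosen with earlier results of these data known. UMIs of a class were summed per library and tested with edgeR's quasi-likelihood test (edgeR 4.0.16, limma 3.58.1, R 4.3.3), with TMM scaling, filterByExpr and Benjamini-Hochberg adjustment over all genes tested, at a threshold of 0.05. The class fit held 72 sums with the library as a block. The region fit and the group fits held all 3 groups, and the group fits 1 region. A median of log2 differences over all genes tested lay within 0.05 of 0 in each of these fits. Each library is 1 mouse and region, so p-values of the group fits measure the spread between 3 mice per group. Those of the class fit measure how the difference between classes varies between libraries. The region fit takes both libraries of a mouse as independent. Shares were compared with exact permutation tests, two-sided. Alternatives used DESeq2 1.42.0. Other steps ran in Python 3.11.15 with pandas 2.3.3, scipy 1.17.1, numpy 2.4.6, matplotlib 3.10.9 and scikit-learn 1.9.0. Likely doublets were the top 0.8% per 1000 nuclei of a library by a score against simulated sums, and they were kept in the values reported except where stated. Differences of a gene whose group was at 0 are given against a floor of 3 UMIs over the group. Gene positions are from GENCODE vM21, where 30766 of 30905 gene identifiers of the files matched.

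Named genes were a fixed set (such as Kcnc1, Syt2, Sox6 and Adarb2), up to 4 called genes per list without overlap between the groups compared, and the 5 largest called rises and falls without overlap among genes with a mean of at least 20 CPM. Ppargc1a and Slit2 between classes, Tenm3, Tenm2, Ttr and Apoe between the regions of GF mice, Gria4 against CGF mice and Mid1 between GF and SPF PFC are outside this rule and were chosen after their values were seen, as were Cplx1 against the other classes and the levels given beside them. Some genes of the rule are not reported here. The fits were tested on simulated counts, where 79.3% of genes changed by 2 on the log2 scale were found between GF and SPF Hip, 75% between GF and SPF PFC and 87.5% between the regions of GF mice. At a change of 1, 6.25%, 9.41% and 13.9% were found. The simulated counts had the same dispersion of 0.1 for all genes, and changed genes were drawn from those above a minimum expected count. This dispersion was not set against that of the data, so the percentages hold for the simulated setting only.

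The 2 libraries of a mouse pair the regions. Over 3341 genes, the deviations of the same mouse from the group means correlated at -0.0847 to 0.123 in 9 pairs, and those of different mice at -0.0760 to 0.118 in 18 pairs. The fit with the mouse as a block was run as an alternative.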

Additional observations from a re-analysis of the deposited data

Results flagged for a closer look

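In PFC, 6 genes differed between GF and SPF mice in Pvalb nuclei by another amount than in the mean of the Sst, Vip and Lamp5 classes, by edgeR's test of that difference at an adjusted p of 0.05. Differences are on the log2 scale ± SE, and no explanation was weighed.

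Cnnm2, a magnesium transport protein, was at 154, 203 and 119 CPM in GF and 119.8, 60.3 and 27.7 CPM in SPF members, with a difference of 1.96 ± 0.36 (adjusted p = 0.0105). The gene was at 70.0, 71.2 and 59.8 CPM in GF and 76.0, 82.5 and 100.4 CPM in SPF nuclei of the Sst class. Its call was lost without GF6, SPF31 or SPF32. Egfem1 was at 44.8, 0 and 72.7 CPM in GF and 399, 80.4 and 305 CPM in SPF members, against 658, 458 and 481 CPM in GF and 723, 701 and 518 CPM in SPF nuclei of the Sst class, a difference of -2.48 ± 0.51 (adjusted p = 0.0201) that was lost without GF6, SPF30 or SPF32.

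Ckb, the brain creatine kinase, was at 256, 249.5 and 364 CPM in GF and 692, 1025 and 791 CPM in SPF members and at 250.1, 203 and 255 CPM in GF and 297, 348 and 309 CPM in SPF nuclei of the Sst class (-1.10 ± 0.21, adjusted p = 0.013). GF members were the lower in both classes. Ppia, the cyclophilin A gene, was at 221, 133 and 199 CPM in GF and 373, 502 and 361 CPM in SPF members and differed by -1.04 ± 0.23 (adjusted p = 0.0337). Nrgn was at 314, 252 and 383 CPM in GF and 359, 516 and 430.0 CPM in SPF members and differed by -1.03 ± 0.23 (adjusted p = 0.0491). The call of Ckb was lost without GF5, GF6 or any SPF mouse, that of Ppia without any mouse but GF7, and that of Nrgn without any of the 9 mice.

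Eif2d, an initiation factor, was at 35.2, 28.6 and 49.8 CPM in GF and 0, 0 and 0 CPM in SPF members, so its fitted difference of 6.98 ± 1.44 rests on a group at 0. Put at 3 UMIs over the SPF group, GF members were at least 3.74-fold higher. In all nuclei of PFC the order was the other way, at 28.5 to 30.1 CPM in GF and 32.9 to 37.7 CPM in SPF mice. The call was lost without any of the 3 SPF mice. Without GF6, edgeR called 0 genes in this contrast, so Eif2d was not called there either. Without GF5 and without GF7, only 1 gene was called as higher in each fit, and Cnnm2 kept its call in both.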

How the results depend on the processing

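Members were few, and 230 of 339 stood on the threshold of 2 Pvalb UMIs. With at least 3 UMIs of the class gene, 900, 1071 and 980 genes were called against the Sst, Vip and Lamp5 classes, 369 between the regions on average and 36 in GF mice, 2 between GF and SPF, 7 between CGF and SPF and 2 between GF and CGF Hip, 330, 1 and 338 for the same contrasts of PFC, and 2 and 1 against the other classes in Hip and PFC. Thinned to 2000 UMIs, no Hip member was left and no Hip or region fit could be run. There were 130, 186 and 160 calls against the classes, 17 between GF and SPF, 0 between CGF and SPF and 12 between GF and CGF PFC, and 0 against the other classes in PFC by edgeR. These settings leave fewer nuclei. With no filter on low counts, 2782 genes were called against the Sst class, 786 higher and 1996 lower, and 130 between the regions of GF mice. The same setting gave 101, 29 and 101 for GF to SPF, CGF to SPF and GF to CGF in Hip, and 35 and 19 against the other classes. In PFC it gave 820 higher and 497 lower for GF to SPF, 877 higher and 531 lower for GF to CGF, and 12 between CGF and SPF. DESeq2 called 2 genes between CGF and SPF Hip, 661 between GF and CGF PFC, 680 between GF and SPF PFC and 18 against the other classes in PFC.

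Over the 9 fits without 1 mouse each, the counts ran from 1474 to 1799 against Sst, 1633 to 2025 against Vip and 1622 to 2024 against Lamp5, 978 to 1318 and 16 to 64 between the regions on average and in GF mice, 0 to 23, 1 to 2 and 0 to 33 for GF to SPF, CGF to SPF and GF to CGF in Hip, 692 to 1228, 4 to 12 and 838 to 1305 in PFC, and 0 to 1 in Hip and 0 to 7 in PFC against the other classes. With only the 9 Hip libraries, 1079 genes were called against Sst and 1293 against Lamp5. With likely doublets removed, 3 were called between CGF and SPF PFC. Between GF and CGF Hip, 16 were called from the 6 libraries of these groups. There, 18 were called without mitochondrial transcripts, ribosomal RNA-linked transcripts and Malat1, which could not be called once removed. In alternatives chosen after the data were seen, the regions differed in 769 genes in CGF mice, in 879 in SPF mice, and against the other classes in 154 on average and 35 in GF mice. The cause of these changes was not tested.

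With the mouse as a replicate block for the pairing of its 2 libraries, 1075 genes were called between the regions on average and 65 in GF mice, of which 50 were among the 56 called without it. The share of Pvalb nuclei in PFC, GF minus SPF, turned to 0.0934 percentage points over all nuclei. Without 1 mouse the differences in share ran from 1.14 to 2.07 points in Hip, -3.05 to -0.362 in PFC and -4.66 to -3.42 between the regions. Of the values of single genes named under these settings, 2226 kept direction and side of the threshold, 289 lost the threshold, 5 gained it and 45 turned sign.

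Of the named genes below, only Apoe in GF mice, and Gm45321, Adarb2, Erbb4 and Sox6 on average over the groups, had been called. Between the regions on average, sign turned against the other classes Gm45321 (-0.54), Erbb4 (-0.069), Sox6 (0.86) and from 3 UMIs Adarb2 (0.15). Between GF and SPF Hip, sign turned from 3 UMIs Scn1a (0.22). Between the regions of GF mice, sign turned with no filter Kcnc1 (-0.087), Erbb4 (-0.079), against the other classes Kcnc1 (-0.080), Scn1a (0.082), Syt2 (1.38), Erbb4 (-0.072), Slc32a1 (-0.065), Adarb2 (0.17), Sox6 (0.93), by DESeq2 Scn1a (0.019), without doublets Scn1a (0.10), Syt2 (0.012), from 3 UMIs Scn1a (0.21), Syt2 (0.026), Erbb4 (-0.14), Adarb2 (3.37), Apoe (-0.11) and with the replicate block Scn1a (0.0069), Erbb4 (-0.021). Between GF and SPF Hip against the other classes, sign turned from 3 UMIs Syt2 (-0.27), Kcnc1 (0.48) and without doublets Kcnc1 (0.022). Between GF and SPF PFC against the other classes, sign turned thinned Erbb4 (-0.41). Without 1 mouse, the regions of GF mice differed by -0.37 to 4.38 in Apoe, -0.11 to 0.17 in Erbb4, -0.11 to 0.15 in Kcnc1, -1.39 to 0.061 in Kcns3, -0.16 to 0.21 in Scn1a, -0.073 to 0.31 in Slc32a1, -0.48 to 0.12 in Syt2. Without 1 mouse, GF and SPF Hip differed by -0.36 to 0.0028 in Erbb4, -0.48 to 0.44 in Syt2. Without 1 mouse, GF and SPF Hip against the other classes differed by -0.26 to 0.034 in Kcnc1. Without 1 mouse, GF and SPF PFC differed by -0.064 to 0.21 in Scn1a, -0.0061 to 0.43 in Sox6. The other genes were not called, with the lowest adjusted p at 0.0814 for Sox6 in GF mice.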
